A study of Homo sapiens with 18 samples.

Results

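The desmosome and cornified envelope plakin genes are 9 genes chosen by symbol from the 60642 in a table of RNA sequencing counts. They are the desmosomal cadherins DSG2 (desmoglein 2), DSC2 and DSC3 (desmocollins 2 and 3), the plakophilins PKP1, PKP2 and PKP3, and the plakins DSP (desmoplakin), PPL (periplakin) and EVPL (envoplakin). All 9 symbols were found. The rule names genes by what they are and takes no threshold on a measured value, but the genes were chosen with earlier results of these data known. Shares over all genes, given beside the counts below, are therefore a description. The genes are described in 18 libraries that cover 2 human cell lines from colorectal cancer, with 3 libraries in each of 6 groups.

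A desmosome is a spot-like junction that ties the intermediate filaments of neighbouring epithelial cells to each other. Desmogleins and desmocollins bind across the gap between cells, plakophilins and plakoglobin sit under the membrane on the cadherin tails, and desmoplakin runs from there to the keratin filaments. Periplakin and envoplakin are relatives of desmoplakin that are best known as scaffold proteins of the cornified envelope of skin, and both are also made in simple epithelia. DSG2, DSC2 and PKP2 are the forms typical of simple epithelia such as the colon, while DSC3 and PKP1 are typical of stratified epithelia such as the skin.

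HT-29 iZEB1 cells carry a system that makes ZEB1, a transcription factor that represses epithelial genes, when doxycycline (DOX) is added. RepSox blocks the kinase ALK5 (TGF-β type I receptor), and DMSO served as vehicle. The groups were SW620 with RepSox and SW620 with DMSO, both without DOX, and 4 groups of HT-29 iZEB1: DOX with RepSox, DOX with DMSO, RepSox without DOX, and DMSO without DOX. The dose of RepSox was 10 µM, for 24 h, and that of DOX was 1 µg per ml. For DOX, 24 h is stated in the labels' treatment protocol and 48 h in the series' design text. All 4 HT-29 groups carry the inducible system, and HT-29 cells without it were not analysed here, so an effect of DOX itself and one of ZEB1 cannot be told apart. Whether HT-29 iZEB1 is 1 clone and whether the replicates are separate cultures is not stated, so the p-values rest on how much these libraries vary, and that variation may be technical.

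Library totals ran from 36.5 to 39.8 M counts. Levels are given in CPM, the counts per M counts of a library, scaled by TMM over all 18 libraries, as mean ± SD with n = 3 per group. The induced gene ZEB1 was at 16.0 CPM with DOX and RepSox, 378 CPM with DOX and DMSO, 5.38 CPM with RepSox and 8.55 CPM with DMSO in HT-29 iZEB1. In SW620 it was at 23.7 CPM with RepSox and 21.5 CPM with DMSO. ZEB1 was thus 23.8-fold lower in the DOX cells that also had RepSox than in the DOX cells with DMSO. CDH1 (E-cadherin), the classical epithelial cadherin, was 2.02-fold lower with DOX than without it in DMSO. The 7 colon epithelium markers summed to 529 to 584 CPM over the SW620 libraries and to 663 to 1414 CPM over the HT-29 libraries, with CDX1 at 0 in all SW620 libraries. In SW620 nearly all of the sum was EPCAM, at 321 to 323 CPM by group, and VIL1, at 200 to 246 CPM. Only 3 of the 7 markers averaged over 1 CPM in SW620, against 4 or 5 in the HT-29 groups. The 6 markers of stratified epithelium summed to 26.5 to 30.4 CPM over the SW620 libraries and to 19.7 to 26.2 CPM over the HT-29 libraries. Nearly all of that was the keratin KRT10, at 22.2 to 26.7 CPM by group, and KRT5 averaged 3.38 CPM in SW620 with RepSox and 1.46 CPM in SW620 with DMSO, while KRT1 had no count in any library. Fibroblast markers summed to 6.66 to 12.8 CPM in SW620 and 0.543 to 1.47 CPM in HT-29, endothelial markers to at most 4.71 CPM and cardiac markers to at most 0.922 CPM in any library. The leukocyte list stood at 3.60 to 4.39 CPM in SW620 and 1122 to 1782 CPM in HT-29, nearly all of it LYZ (1196 to 1760 CPM by HT-29 group), a lysozyme gene that intestinal cells also express.

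For 5 of the 9 genes (DSP, DSC2, DSC3, DSG2 and PKP1) RefSeq gives the sequence before a transcription start on GRCh38.p14. PKP2, PKP3, PPL and EVPL had no entry in that table. The 250 bases before each start were searched on both strands for CACCTG and its reverse complement CAGGTG, the core of the E-box that ZEB1 is known to bind. At least 1 copy was present in 17.5% of 35116 windows of this length over all genes, and at least 2 copies in 2.53%. Of the members, DSP and DSG2 each had 2 copies, DSC2 had 1 before its upstream start and none before its downstream start, and DSC3 and PKP1 had none. The sequences with a copy are shown because these 3 genes differ in what DOX did, as described further on: DSP and DSG2 were lower with DOX and DSC2 was not called. Each is read 5′ to 3′ on the strand of its gene and is the stretch before both the RefSeq start and the GENCODE 29 gene start, with the motif in capitals. The other copies in DSP and DSG2 lie beyond it, 85 and 116 bases before the RefSeq start. DSP is from chr6:7541421-7541574 (plus strand), DSG2 from chr18:31497927-31498042 (plus strand) and DSC2 from chr18:31102523-31102671 (minus strand).
DSP: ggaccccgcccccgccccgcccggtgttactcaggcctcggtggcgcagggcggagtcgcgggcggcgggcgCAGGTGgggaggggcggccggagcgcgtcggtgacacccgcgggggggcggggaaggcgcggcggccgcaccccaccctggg
DSG2: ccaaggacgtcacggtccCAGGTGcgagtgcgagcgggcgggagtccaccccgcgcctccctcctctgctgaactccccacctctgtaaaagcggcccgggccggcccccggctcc
DSC2: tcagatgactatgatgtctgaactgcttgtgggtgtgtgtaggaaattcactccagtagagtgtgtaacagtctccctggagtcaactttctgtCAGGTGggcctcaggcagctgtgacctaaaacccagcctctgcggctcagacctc
A copy of the motif is a match of letters, and whether ZEB1 binds there was not tested.

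The genes lie on 7 chromosomes, and DSC2, DSC3 and DSG2 share a stretch of chromosome 18. On GRCh38 with GENCODE 29, DSC3 spans 30990008 to 31042815 (minus strand), DSC2 spans 31058840 to 31102522 (minus strand) and DSG2 spans 31498043 to 31549008 (plus strand) of that chromosome. DSP spans 7541575 to 7586717 of chromosome 6 (plus strand). The plakophilin genes lie apart, with PKP1 on chromosome 1, PKP2 on chromosome 12 and PKP3 on chromosome 11, and PPL and EVPL lie on chromosomes 16 and 17. All 9 are protein-coding. The exons of DSG2 overlap those of DSG2-AS1, an antisense gene, over 171 bases, which is 2.76% of its exon length. DSG2-AS1 had at most 11 counts in a library, against at least 2850 for DSG2.

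In HT-29, 7 of the genes averaged more than 20 CPM in every group, and DSC3 and PKP1 were near the limit of detection there. DSC3 had 0 to 32 counts per HT-29 library and none in the 6 SW620 libraries. A count of 0 over 3 libraries allows up to 3 counts, or 0.0260 CPM in SW620 with RepSox and 0.0254 CPM in SW620 with DMSO, counting error only. PKP1 had 0 to 16 counts per HT-29 library and 54 to 89 per SW620 library. All 9 genes passed the filter on low counts in the HT-29 libraries and over all 18 libraries, and 8 passed in SW620, where DSC3 was left out.

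**Figure D1:**
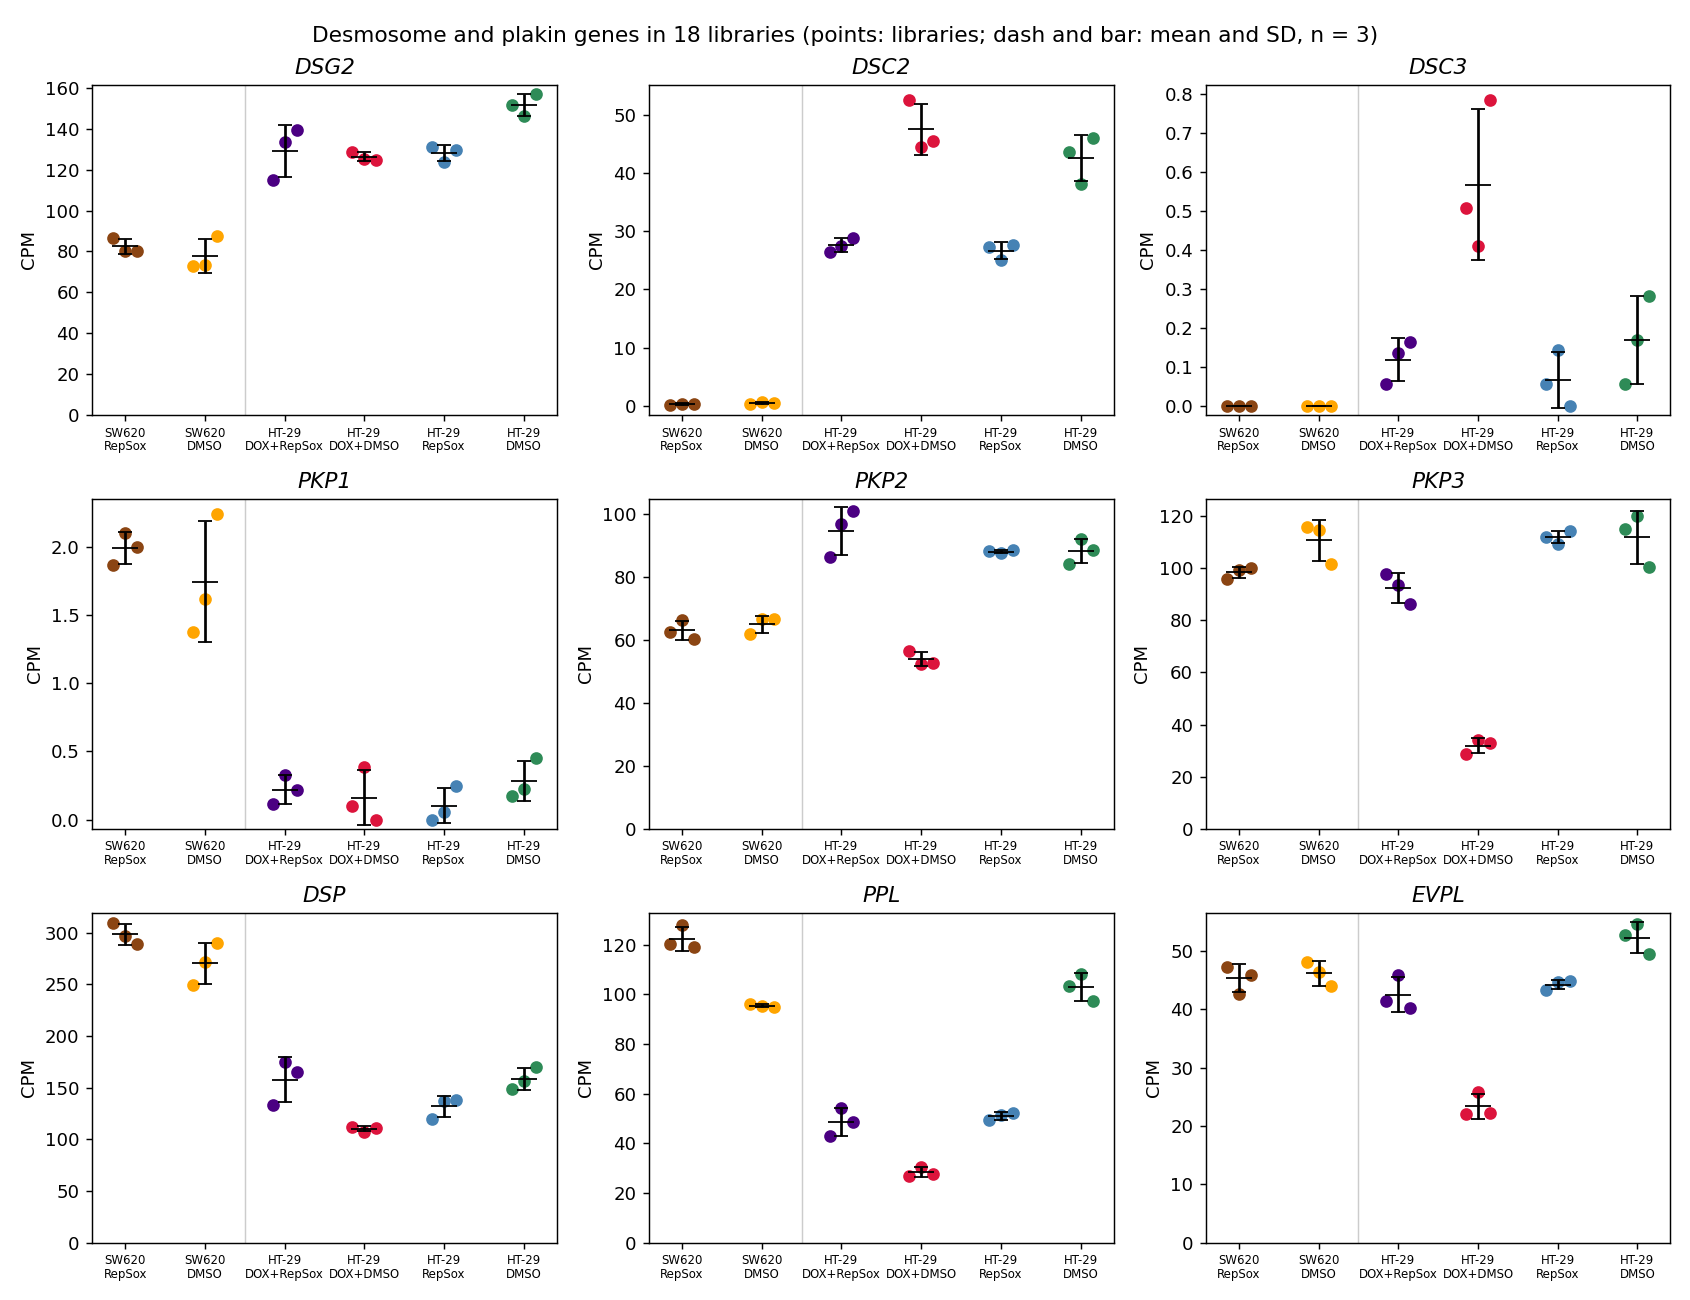
Level of each gene in CPM (vertical axis, its own scale in each panel) in the 6 groups; points are libraries, dashes and bars are mean and SD of 3. In HT-29 the DOX with DMSO libraries are the lowest for PKP2, PKP3, DSP, PPL and EVPL but not for DSC2, and DSC2 and DSC3 are at or near 0 in SW620.

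Levels of different genes were compared per kilobase of exon. In SW620 with DMSO, PKP3 at 29.2 ± 2.1 CPM per kb and DSP at 26.8 ± 2.0 CPM per kb led (SD, n = 3), and their spreads met. With DOX and DMSO the order in HT-29 was DSG2 at 20.4 ± 0.36 CPM per kb, DSP at 10.9 ± 0.23, PKP3 at 8.41 ± 0.76, PKP2 at 7.65 ± 0.32, DSC2 at 3.81 ± 0.35, PPL at 3.70 ± 0.25 and EVPL at 3.11 ± 0.28 (SD, n = 3 each). The spreads (mean ± SD) of PKP3 and PKP2 met there, as did those of DSC2 and PPL. In HT-29 with DMSO and no DOX, PKP3 at 29.5 ± 2.7 CPM per kb came before DSG2 at 24.5 ± 0.88, DSP at 15.7 ± 1.1, PPL at 13.4 ± 0.73, PKP2 at 12.5 ± 0.55, EVPL at 6.95 ± 0.35 and DSC2 at 3.41 ± 0.32 (SD, n = 3 each). PPL and PKP2 are neighbours in that order whose spreads meet. With the length of the longest transcript in place of all exons, the first gene stayed first in 5 of 6 groups. The order of the first 3 stayed in none, so the order depends on the length used. In SW620 with RepSox the leading gene changed too, from DSP by all exons to PKP3 by the longest transcript.

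DOX with DMSO was first set against DMSO alone in HT-29 iZEB1. Of the 9 genes, 6 were lower and 1 was higher with DOX, by edgeR's quasi-likelihood test with Benjamini-Hochberg adjustment over 16978 genes at an adjusted p below 0.05. Over all genes tested, 21.1% were lower and 19.2% were higher. The median log2 fold change was -0.71 over the 9 genes and 0.00 over all genes tested. The largest falls were those of the plakin PPL and the plakophilin PKP3, and the cadherins moved least or the other way. In bulk RNA, fewer cells that express a gene and less of its RNA per cell cannot be told apart.

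PPL, the periplakin gene, had 26.9, 30.6 and 27.7 CPM with DOX and DMSO, against 103, 108 and 97.2 CPM with DMSO alone. The groups were far apart, and PPL fell by 1.85 on the log2 scale (3.61-fold lower, SE 0.081, adjusted p = 2.38e-12). EVPL, the envoplakin gene, whose protein pairs with periplakin, had 22.1, 25.7 and 22.2 CPM with DOX and DMSO, against 52.7, 54.6 and 49.4 CPM with DMSO alone. It was 2.23-fold lower (log2 fold change -1.16, SE 0.077, adjusted p = 7.36e-10). DSP, which anchors keratin to the junction, had 112, 107 and 111 CPM with DOX and DMSO, against 149, 157 and 170 CPM with DMSO alone. The fall was smaller than for the other plakins, at 1.44-fold (log2 fold change -0.52, SE 0.086, adjusted p = 7.88e-05), and again no library of one group reached the other.

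Among the plakophilins, PKP3, the form found most widely in epithelia, had 28.6, 33.9 and 33.1 CPM with DOX and DMSO, against 115, 120 and 100 CPM with DMSO alone. It was 3.50-fold lower (log2 fold change -1.81, SE 0.079, adjusted p = 2.38e-12). PKP2, the form typical of simple epithelia and heart, had 56.5, 52.4 and 52.8 CPM with DOX and DMSO, against 84.3, 92.0 and 88.6 CPM with DMSO alone, and was 1.63-fold lower (log2 fold change -0.71, SE 0.066, adjusted p = 8.42e-08). In both genes every library with DOX was below every library without it. The ratio of PKP3 to PKP2 counts in a library was 0.593 ± 0.077 with DOX and DMSO and 1.27 ± 0.12 with DMSO alone (SD, n = 3 each), a description with no test. Per kilobase of exon, PKP3 made up 52.2% of the plakophilin sum with DOX and DMSO and 70.0% with DMSO alone. PKP1 had 19 counts over 3 libraries with DOX and DMSO and 30 with DMSO alone, and its difference was not called (adjusted p = 0.464 by edgeR).

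Among the cadherins, DSG2 was called lower, DSC2 was not called and DSC3 was called higher. DSG2 had 129, 125 and 125 CPM with DOX and DMSO, against 152, 146 and 157 CPM with DMSO alone, a fall of 0.26 on the log2 scale (1.20-fold, SE 0.067, adjusted p = 0.00475). DSC2 had 52.5, 44.5 and 45.6 CPM with DOX and DMSO, against 43.7, 38.2 and 46.0 CPM with DMSO alone. The groups overlapped and DSC2 was not called (log2 fold change 0.16, 95% interval -0.01 to 0.34, adjusted p = 0.128 by edgeR), although with library totals in place of TMM it was called higher (log2 fold change 0.24, adjusted p = 0.0298). DSC3 had 20, 16 and 32 counts with DOX and DMSO, against 2, 6 and 10 counts with DMSO alone. It was called higher (3.32-fold, adjusted p = 0.0178 by edgeR) on few counts, and the call was lost without DOX with DMSO replicate 3 (adjusted p = 0.0971), DMSO replicate 1 (0.0977) or DMSO replicate 2 (0.0574).

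Other genes of the junction and its filaments were listed by their function. Of the 7 other desmosome genes, 4 were tested, and 2 were lower and 1 was higher with DOX. JUP (plakoglobin), which links the cadherins to desmoplakin, averaged 300 CPM with DOX and DMSO and 409 CPM with DMSO alone (log2 fold change -0.44). PERP, a membrane protein of desmosomes, fell by 0.42 on the log2 scale, and PKP4 was higher by 0.25. Of the 4 other plakins, EPPK1 (epiplakin) was lower (log2 fold change -1.75), while DST (0.95), MACF1 (0.57) and PLEC (0.20), which link filaments to the cell base and the cytoskeleton, were higher. Of the 5 keratins of simple epithelia, 4 were lower: KRT8 (log2 fold change -0.95), KRT18 (-0.97), KRT19 (-1.20) and KRT20 (-0.64), all by the same edgeR test. Of 19 cornified envelope genes found, 4 were tested and 2 were lower, SCEL (sciellin, log2 fold change -1.15) and KAZN (kazrin, -0.48). The summed colon epithelium markers moved in the same comparison, at 663 to 724 CPM with DOX and DMSO against 1321 to 1414 CPM with DMSO alone. Of these markers EPCAM, VIL1, KRT20 and LGALS4 were called lower, CDH17 was called higher (log2 fold change 2.68), and CDX1 and CDX2 were not called. The part of the markers in these results was not tested.

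**Figure D2:**
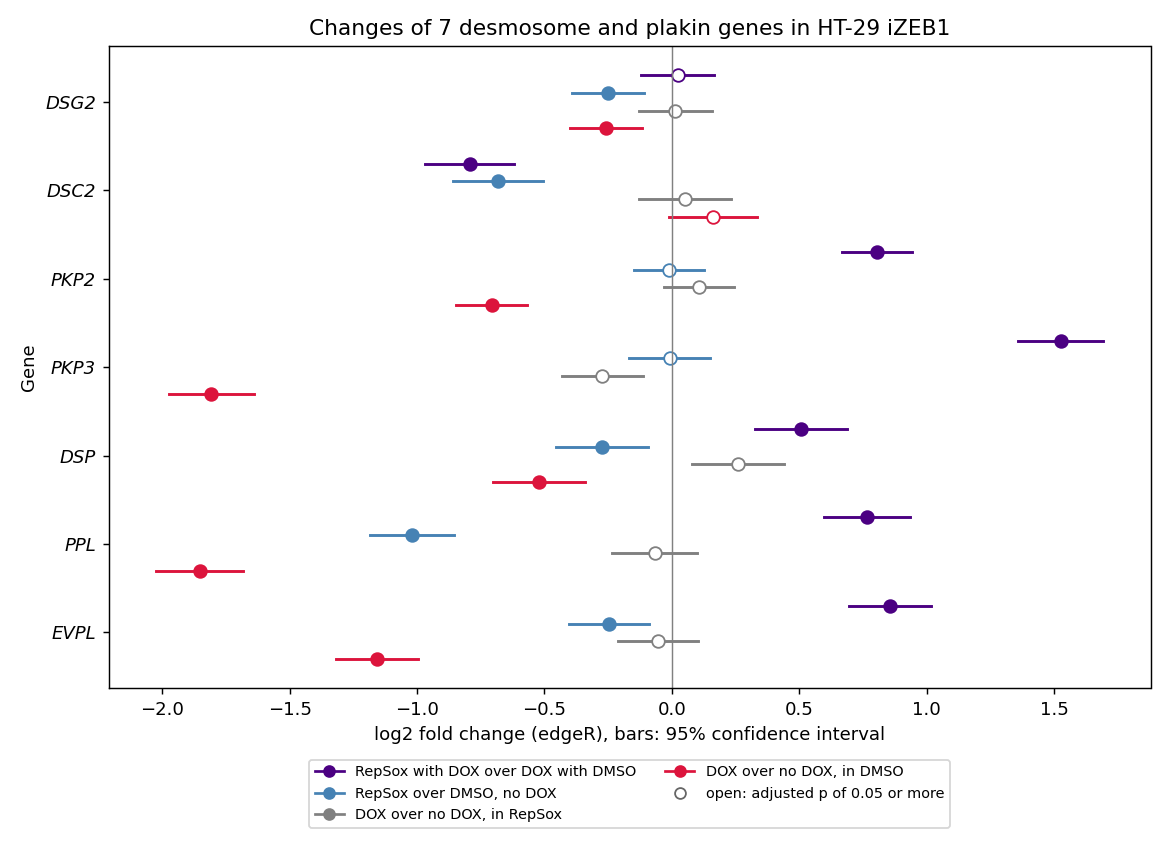
Log2 fold change (horizontal axis) of the 7 genes with more than 5 CPM on average, in 4 comparisons within HT-29 iZEB1; bars are 95% confidence intervals and filled points are called at an adjusted p below 0.05. DOX over no DOX in DMSO is furthest left for PPL and PKP3, and the same comparison in RepSox lies near 0 for all 7, between -0.27 and 0.26.

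RepSox was next compared with DMSO in cells given DOX. Of the 9 genes, 5 were higher and 2 were lower with DOX and RepSox than with DOX and DMSO, where 26.8% of the 16978 genes were higher and 25.5% were lower. The genes that were higher were the 3 plakins, PKP2 and PKP3, and those that were lower were the 2 desmocollins. The median log2 fold change was 0.51 over the 9 genes and -0.01 over all genes tested. This comparison shares its DOX with DMSO libraries with the one before, so a low value there raises a gene here, and ZEB1 itself was 23.8-fold lower with DOX and RepSox.

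PKP3 had 97.6, 93.4 and 86.3 CPM with DOX and RepSox and 28.6, 33.9 and 33.1 CPM with DOX and DMSO. It was 2.88-fold higher (log2 fold change 1.53, SE 0.079, adjusted p = 2.12e-11, edgeR). EVPL had 41.5, 45.9 and 40.2 CPM with DOX and RepSox, against 22.1, 25.7 and 22.2 CPM with DOX and DMSO, and was 1.81-fold higher (log2 fold change 0.86, SE 0.077, adjusted p = 3.06e-08). PKP2 had 86.4, 96.8 and 101 CPM with DOX and RepSox, against 56.5, 52.4 and 52.8 CPM with DOX and DMSO, and was 1.75-fold higher (log2 fold change 0.81, SE 0.066, adjusted p = 9.23e-09). In each of these the groups did not overlap. PPL had 43.1, 54.3 and 48.4 CPM with DOX and RepSox, against 26.9, 30.6 and 27.7 CPM with DOX and DMSO (1.70-fold higher, log2 fold change 0.77, SE 0.081, adjusted p = 2.51e-07). DSP had 133, 175 and 165 CPM with DOX and RepSox, against 112, 107 and 111 CPM with DOX and DMSO (1.42-fold higher, log2 fold change 0.51, SE 0.086, adjusted p = 6.51e-05). The spread of DSP was wide with RepSox, where replicate 1 was the lowest.

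The desmocollins went down. DSC2 had 26.5, 27.5 and 28.9 CPM with DOX and RepSox, against 52.5, 44.5 and 45.6 CPM with DOX and DMSO. It was 1.73-fold lower (log2 fold change -0.79, SE 0.084, adjusted p = 2.5e-07, edgeR), with no overlap. DSC3 had 2, 5 and 6 counts with DOX and RepSox, against 20, 16 and 32 counts with DOX and DMSO, and was 4.71-fold lower (log2 fold change -2.24, SE 0.59, adjusted p = 0.00356). DSG2 had 115, 134 and 139 CPM with DOX and RepSox, on both sides of its 129, 125 and 125 CPM with DOX and DMSO. Its difference was not called (log2 fold change 0.02, 95% interval -0.12 to 0.16), and it turned to -0.04 with library totals. PKP1 was not called (adjusted p = 0.689). Of the other plakins, EPPK1 was higher (log2 fold change 1.63), and DST (-1.59), MACF1 (-0.72) and PLEC (-0.58) were lower. JUP was lower (log2 fold change -0.47), while of the 5 keratins KRT8 (1.19), KRT18 (1.43) and KRT19 (0.36) were higher and KRT20 was lower (-0.46). KAZN was the 1 cornified envelope gene of 4 tested that was called, and was higher (log2 fold change 0.70). The summed colon epithelium markers were at 1093 to 1156 CPM with DOX and RepSox and 663 to 724 CPM with DOX and DMSO, and their part in these results was not tested. Of these markers EPCAM, VIL1, LGALS4 and CDX1 were called higher, KRT20 and CDH17 (log2 fold change -3.04) were called lower, and CDX2 was not called. The CDX1 call (adjusted p = 0.0465, edgeR) rested on few counts, 44 over 3 libraries with DOX and RepSox and 14 with DOX and DMSO.

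RepSox without DOX gave a different pattern. Of the 9 genes, 5 were lower and 0 were higher with RepSox than with DMSO, where 12.8% of all genes were lower and 12.5% were higher. No further gene was added at an unadjusted p below 0.05 by edgeR, and DESeq2 called the same 5. PPL had 49.4, 51.5 and 52.1 CPM with RepSox, against 103, 108 and 97.2 CPM with DMSO. It was 2.03-fold lower (log2 fold change -1.02, SE 0.079, adjusted p = 4.15e-08). DSC2 had 27.3, 25.1 and 27.7 CPM with RepSox, against 43.7, 38.2 and 46.0 CPM with DMSO, and was 1.61-fold lower (log2 fold change -0.68, SE 0.084, adjusted p = 1.08e-05). These 2 genes, a plakin and a desmocollin, were the clear responders.

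The other 3 falls were small. DSP had 120, 137 and 138 CPM with RepSox, against 149, 157 and 170 CPM with DMSO (log2 fold change -0.27, adjusted p = 0.0246, edgeR). DSG2 had 131, 124 and 130 CPM with RepSox, against 152, 146 and 157 CPM with DMSO (log2 fold change -0.25, adjusted p = 0.0106). EVPL had 43.3, 44.6 and 44.7 CPM with RepSox, against 52.7, 54.6 and 49.4 CPM with DMSO (log2 fold change -0.25, adjusted p = 0.0200). Leaving out 1 library at a time left 3 or 4 of the 5 calls: EVPL was lost in 5 of the 6 fits (adjusted p = 0.0541 to 0.0839, edgeR), all but the one without DMSO replicate 3. DSP was lost without RepSox replicate 1, DMSO replicate 2 or DMSO replicate 3 (0.0514 to 0.136), and DSG2 without RepSox replicate 2 (0.0617). PKP2 and PKP3 were not called. PKP2 averaged 88.2 ± 0.51 CPM with RepSox and 88.3 ± 3.9 CPM with DMSO (log2 fold change -0.01, 95% interval -0.15 to 0.13), and PKP3 averaged 112 ± 2.4 CPM with RepSox and 112 ± 10 CPM with DMSO (log2 fold change -0.01, 95% interval -0.17 to 0.15). Of 4 other desmosome genes tested, JUP was lower with RepSox (log2 fold change -0.62) and 3 were not called. Of the 4 other plakins, DST (-0.99), PLEC (-0.45) and MACF1 (-0.36) were lower and 1 was not called. Of the 5 keratins, KRT19 (-0.76) and KRT20 (-1.28) were lower and 3 were not called. Of 4 cornified envelope genes tested, SCEL (-2.21) was lower and 3 were not called.

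In cells that had RepSox, 0 of the 9 genes were called for DOX over no DOX by edgeR, and 0.477% of all genes were called. At an unadjusted p below 0.05, 2 of the 9 passed, DSP and PKP3, as did 2388 of the 16978 genes. DSP had 133, 175 and 165 CPM with DOX and RepSox, against 120, 137 and 138 CPM with RepSox alone (log2 fold change 0.26, 95% interval 0.08 to 0.44, adjusted p = 0.209, edgeR). PKP3 had 97.6, 93.4 and 86.3 CPM with DOX and RepSox, against 112, 109 and 114 CPM with RepSox alone (log2 fold change -0.27, 95% interval -0.43 to -0.11, adjusted p = 0.133). DESeq2 called PKP3, and both were called with no filter on low counts. Without DOX with RepSox replicate 1 both were called too, and the number of genes called went to 1670. PPL averaged 48.6 ± 5.6 CPM with DOX and RepSox and 51.0 ± 1.4 CPM with RepSox alone, with an interval of -0.23 to 0.10 on the log2 scale. ZEB1 averaged 16.0 CPM in the cells with DOX and RepSox and 5.38 CPM in those with RepSox alone, and its part here was not tested.

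Cells with DOX and RepSox were also set against cells with DMSO alone. Here 5 of the 9 genes were lower and 0 were higher, where 13.6% of all genes were lower and 12.6% higher. At an unadjusted p below 0.05 the count was the same, and DESeq2 also called 5. PPL was 2.12-fold lower with DOX and RepSox (log2 fold change -1.09), DSC2 1.55-fold lower (-0.63), EVPL 1.23-fold lower (-0.30), PKP3 1.21-fold lower (-0.28) and DSG2 1.18-fold lower (-0.24). The PKP3 call was lost without DOX with RepSox replicate 3 (adjusted p = 0.0533, edgeR) or DMSO replicate 2 (0.0628), and the DSG2 call without DOX with RepSox replicate 1 (0.0577) or DMSO replicate 3 (0.0590). PPL averaged 48.6 ± 5.6 CPM with DOX and RepSox and 51.0 ± 1.4 CPM with RepSox alone (SD, n = 3 each). It averaged 28.4 ± 2.0 CPM with DOX and DMSO and 103 ± 5.6 CPM with DMSO alone (SD, n = 3 each). The PPL level with both agents lay between those 2 groups, and near that with RepSox alone. DSP (log2 fold change -0.01, 95% interval -0.19 to 0.17) and PKP2 (0.10, 95% interval -0.04 to 0.23) were not called.

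The difference between the DOX response in RepSox and that in DMSO was tested directly, as an interaction term. It was positive and called for 6 of the 9 genes, and negative and called for 0, with 13% of all genes called positive and 9.61% negative. It was largest for PPL (log2 1.79, SE 0.11, adjusted p = 1.81e-09, edgeR), then PKP3 (1.53), EVPL (1.10), PKP2 (0.82), DSP (0.78) and DSG2 (0.27, adjusted p = 0.0477). None was negative at an unadjusted p below 0.05 or by DESeq2. The DSG2 call was lost with RLE scaling (adjusted p = 0.0510), with library totals (0.121) and with no filter (0.0593), and in 11 of the 12 fits that left out 1 library (0.0529 to 0.169), all but the one without DOX with RepSox replicate 1. The same term, read the other way, is the difference between the RepSox response with DOX and that without. For PPL that response was 0.77 with DOX and -1.02 without DOX on the log2 scale, both called and opposite in sign. Its levels with RepSox were close, 48.6 CPM with DOX and 51.0 CPM without DOX. Its levels with DMSO were far apart, 28.4 CPM with DOX and 103 CPM without DOX. DSC2 had -0.79 with DOX and -0.68 without DOX, and its interaction was not called (log2 -0.11, 95% interval -0.36 to 0.14). JUP (log2 0.15) was not called either. Of the 4 other plakins, EPPK1 was called positive (log2 1.62) and DST (-0.60) and MACF1 (-0.36) negative. KRT18 (1.26), KRT19 (1.12), KRT8 (1.07) and KRT20 (0.82), which are 4 of the 5 keratins, and SCEL (1.79) were called positive.

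**Figure D3:**
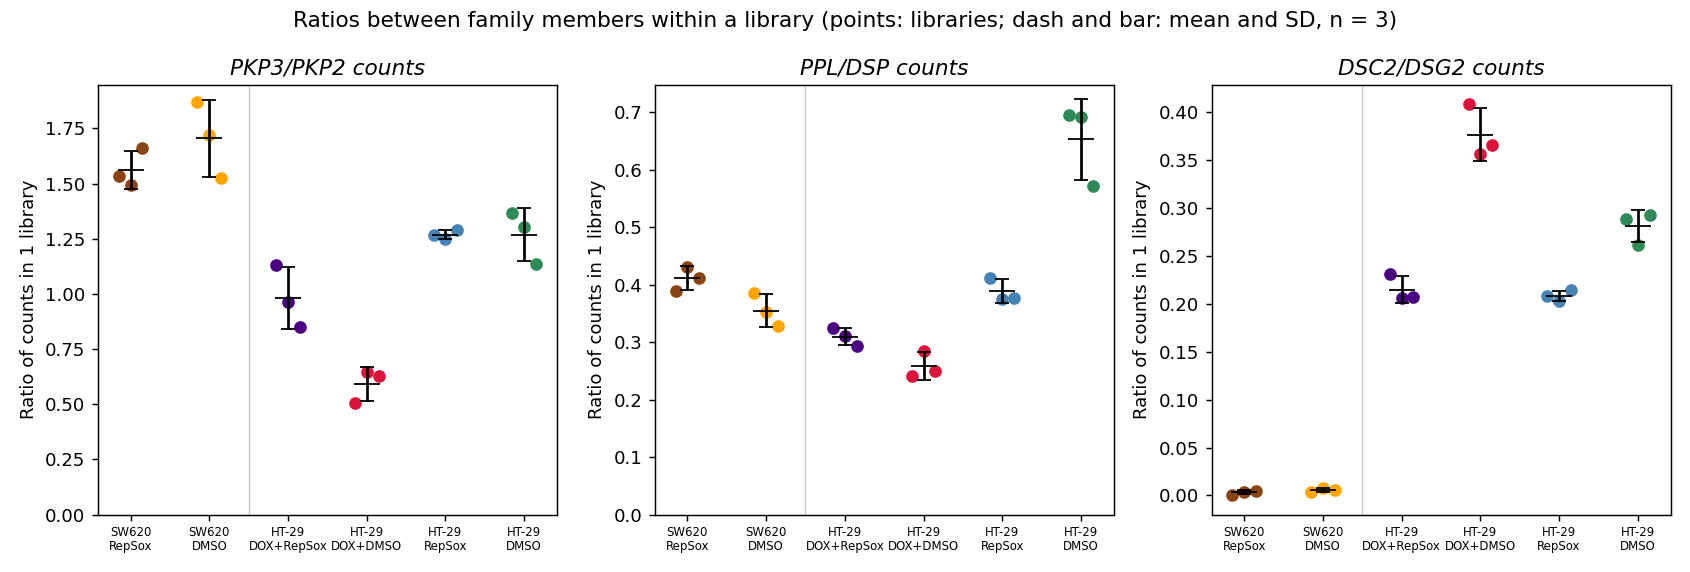
Ratio of the counts of 2 genes in the same library (vertical axis), which does not depend on library scaling; points are libraries, dashes and bars are mean and SD of 3. PKP3 over PKP2 is lowest with DOX and DMSO at 0.593, PPL over DSP is highest in HT-29 with DMSO alone at 0.652, and DSC2 over DSG2 is near 0 in SW620.

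Ratios of counts within a library, which no scaling changes, showed the same shifts between members. PPL over EVPL counts was 1.14 ± 0.091 with DOX and RepSox, 1.22 ± 0.028 with DOX and DMSO, 1.15 ± 0.011 with RepSox alone and 1.97 ± 0.011 with DMSO alone (SD, n = 3 each). The cells with DMSO alone thus stood apart from the other 3 HT-29 groups. DSC2 over DSG2 counts was 0.215 ± 0.014 with DOX and RepSox, 0.376 ± 0.028 with DOX and DMSO, 0.208 ± 0.0056 with RepSox alone and 0.281 ± 0.017 with DMSO alone (SD, n = 3 each). It was lower in both RepSox groups than in both DMSO groups, with no overlap of libraries. These ratios are descriptions with no test.

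Between SW620 and HT-29 cells, DSC2 differed most among these genes. In DMSO, 2 of the 9 genes were higher and 5 were lower in SW620 than in HT-29 iZEB1 without DOX, where 40.1% of 19107 genes were higher and 36.5% lower. Most genes were thus called between the lines, 14636 of the 19107, so the count does not set the members apart. DSC2 had 10, 23 and 20 counts in SW620, against 1543, 1351 and 1634 counts in HT-29, and was 94.1-fold lower (log2 fold change -6.56, SE 0.17, adjusted p = 3.47e-21, edgeR). DSC3 had 0 counts in SW620 against 18 over the 3 HT-29 libraries, at least 6.66-fold lower with a limit of 3 counts over the group. The remaining desmocollin, DSC1, had no count in any library. DSG2 had 72.7, 73.2 and 87.6 CPM in SW620, against 152, 146 and 157 CPM in HT-29, and was 1.95-fold lower (log2 fold change -0.96, SE 0.071, adjusted p = 6.44e-12). DSG2 was thus the main desmosomal cadherin measured in SW620, where DSG1 averaged 0.297 CPM and DSG3 and DSG4 had no counts in DMSO.

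Of the plaque genes, DSP and PKP1 were higher in SW620 and PKP2 and EVPL lower. DSP had 250, 271 and 290 CPM in SW620, against 149, 157 and 170 CPM in HT-29, and was 1.70-fold higher (log2 fold change 0.77, SE 0.080, adjusted p = 3.51e-09, edgeR). PKP1 had 54, 63 and 89 counts in SW620, against 6, 8 and 16 counts in HT-29, and was 6.12-fold higher (log2 fold change 2.61, SE 0.50, adjusted p = 4.29e-05), though it made up 0.732% of the plakophilin sum per kb in SW620. PKP2 had 61.9, 66.6 and 66.7 CPM in SW620, against 84.3, 92.0 and 88.6 CPM in HT-29 (1.36-fold lower, log2 fold change -0.44, adjusted p = 6.33e-07). PKP3 averaged 111 ± 7.9 CPM in SW620 and 112 ± 10 CPM in HT-29 (log2 fold change -0.02, 95% interval -0.16 to 0.13), and PPL averaged 95.5 ± 0.61 CPM in SW620 and 103 ± 5.6 CPM in HT-29 (log2 fold change -0.11, 95% interval -0.25 to 0.03). Neither was called, although PPL was called lower without HT-29 DMSO replicate 3 (adjusted p = 0.0343), and with library totals both turned positive, 0.11 for PKP3 and 0.016 for PPL. EVPL was called lower (log2 fold change -0.18, adjusted p = 0.0239) and the call was lost with library totals (adjusted p = 0.481), which move the median of all genes by 0.12. JUP, the partner of desmoplakin, was lower in SW620 (log2 fold change -2.57), as were PKP4 (-0.94) and CDH1 (-5.56). Of the 4 other plakins, DST was higher (log2 fold change 1.14), and EPPK1 (-4.67) and MACF1 (-0.28) were lower. Of the 7 cornified envelope genes tested, 4 were higher and 2 were lower in SW620, at low levels. FLG (filaggrin), a filament-bundling protein of skin, averaged 1.02 CPM in SW620 and 0.019 CPM in HT-29, HRNR averaged 0.389 CPM and TGM5 0.382 CPM in SW620 with no count in HT-29, and CNFN was lower (log2 fold change -5.12). Of the 5 keratins, KRT7 (2.58) and KRT19 (0.43) were higher and KRT20 (-9.71), KRT8 (-0.58) and KRT18 (-0.31) were lower.

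SW620 in DMSO was also set against HT-29 iZEB1 with DOX and DMSO, the group with the most ZEB1. Here 6 of the 9 genes were higher and 3 were lower in SW620, with 41.6% of all genes higher and 36.8% lower. PKP3 was 3.47-fold higher in SW620 (log2 fold change 1.80), PPL 3.36-fold higher (1.75), DSP 2.45-fold higher (1.30) and EVPL 1.98-fold higher (0.98). PKP2 was 1.21-fold higher (log2 fold change 0.27), and PKP1 was 10.7-fold higher (3.42) on few counts. DSC2 was 105-fold lower in SW620 and DSC3 at least 22.4-fold lower, and DSG2 was 1.62-fold lower (log2 fold change -0.70). PPL and PKP3, which had the largest falls with DOX in HT-29, were not called between SW620 and HT-29 in DMSO, and DSC2, the furthest below HT-29 in SW620, was not called for DOX. The 2 line comparisons share the SW620 libraries, and the second shares its DOX with DMSO libraries with the DOX comparison.

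RepSox was then compared with DMSO in SW620. Of the 8 tested, 2 were higher and 1 was lower with RepSox than with DMSO, where 10.2% of 17147 genes were higher and 9.24% lower. PPL had 120, 128 and 119 CPM with RepSox, against 96.2, 95.4 and 94.9 CPM with DMSO. It was 1.28-fold higher (log2 fold change 0.36, SE 0.047, adjusted p = 4.21e-06, edgeR), and was called under every alternative run. DSP had 309, 297 and 289 CPM with RepSox, against 250, 271 and 290 CPM with DMSO, and the groups overlapped (log2 fold change 0.14, adjusted p = 0.0476). PKP3 had 96.0, 99.2 and 100 CPM with RepSox, against 116, 115 and 102 CPM with DMSO (log2 fold change -0.17, adjusted p = 0.0225). The DSP and PKP3 calls were both lost when RepSox replicate 1 or 2, or DMSO replicate 1 or 2, was left out, and when all 18 libraries were fitted together. The DSP call was also lost with library totals (adjusted p = 0.151, edgeR) and with the replicate block (0.0761), and the PKP3 call without RepSox replicate 3 (0.0522). DSC2 had 3, 12 and 15 counts with RepSox and 10, 23 and 20 counts with DMSO, and was not called (adjusted p = 0.268). DSG2, PKP1, PKP2 and EVPL were not called either, with log2 fold changes between -0.05 and 0.19. Without DMSO replicate 3, however, DSG2 was called higher (log2 fold change 0.18, adjusted p = 0.00658, edgeR). All 4 keratins of simple epithelia that were tested were higher with RepSox, KRT8 by 0.59, KRT18 by 0.47, KRT19 by 0.79 and KRT7 by 1.33 on the log2 scale. Of 4 other desmosome genes tested, PERP was higher (log2 fold change 0.47) and 3 were not called. Of the 4 other plakins, PLEC (0.65), DST (0.29) and MACF1 (0.26) were higher and 1 was not called. Of 7 cornified envelope genes tested, SCEL was higher (1.04), at a low level of 0.979 CPM with RepSox and 0.475 CPM with DMSO. TGM1, a transglutaminase of the cornified envelope, was lower (-0.42), and 5 were not called.

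**Figure D4:**
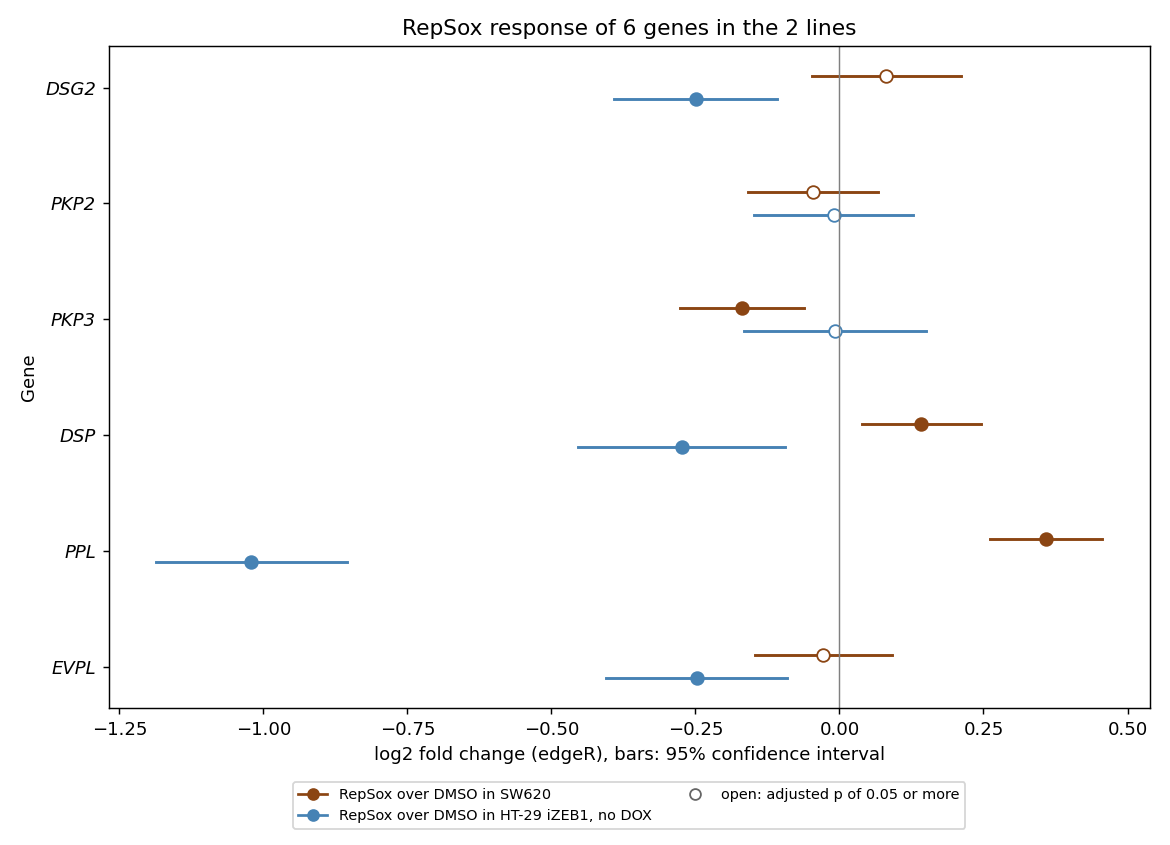
Log2 fold change with RepSox over DMSO (horizontal axis) for the 6 genes with more than 5 CPM in both lines, in SW620 and in HT-29 iZEB1 without DOX; bars are 95% confidence intervals and filled points are called. PPL lies at 0.36 in SW620 and at -1.02 in HT-29, and PKP2 lies near 0 in both.

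The difference between the RepSox response of SW620 and that of HT-29 iZEB1 without DOX was tested in a fit of all 18 libraries. It was positive and called for 3 of the 9 genes, and negative and called for 0 by edgeR, with 5.39% of all genes called positive and 4.99% negative. It was 1.37 for PPL on the log2 scale (SE 0.097, adjusted p = 4.91e-10), 0.41 for DSP (SE 0.11, adjusted p = 0.0181) and 0.32 for DSG2 (SE 0.10, adjusted p = 0.0388). None was negative at an unadjusted p below 0.05 or by DESeq2. Without SW620 DMSO replicate 1, HT-29 RepSox replicate 1 or HT-29 DMSO replicate 3 only the PPL call was left. The DSG2 call was lost in 10 of the 12 fits that left out 1 library (adjusted p = 0.0508 to 0.118, edgeR), all but those without SW620 DMSO replicate 3 or HT-29 DMSO replicate 2, and with library totals (0.0612). PKP2 (log2 -0.04, 95% interval -0.22 to 0.14), PKP3 (-0.17, 95% interval -0.38 to 0.04) and EVPL (0.21, 95% interval 0.01 to 0.42, adjusted p = 0.190) were not called.

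The genes were also compared by the shape of their profiles, the log2 CPM of each gene over the 18 libraries with its mean removed. Among the 7 genes with more than 5 CPM on average, the closest pair was PKP3 and EVPL, with a root mean square difference of 0.30 on the log2 scale, followed by PKP2 and EVPL at 0.31 and DSG2 and PKP2 at 0.33. PPL and EVPL stood at 0.49. DSC2 was the furthest from the rest, at 2.23 or more from every other, since it alone of the 7 was near 0 in SW620. Outside the family, the gene nearest to PPL was B3GNT3 at 0.19, then CCDC120 at 0.20. The genes nearest to PKP3 were FAM160A1 at 0.17 and GRB7 at 0.20, and the gene nearest to DSC2 was HNMT at 0.21. DSP was nearest to MIS12 and PSMD7 (both 0.13), EVPL to PICK1 (0.11) and TRIB3 (0.12), DSG2 to PSMD5 and PRKAG2 (both 0.09) and PKP2 to HSPA8 and USP37 (both 0.10). DSC3 and PKP1, which have few counts, were nearest to FEZ2 (0.14) and AFF4 (0.15), and to PRAG1 and DDB2 (both 0.25). A small difference is easier to reach for a gene that varies little, such as PKP2, and the profiles share libraries and the contrast between the 2 lines.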

How the data were processed

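The deposited table holds raw whole-number counts of reads per gene symbol for 18 libraries, per the file headers and values. Per the submitters' processing notes, the authors used GRCh38.p13, HISAT2 2.2.0 and featureCounts 2.0.0, with FastQC 0.11.9 and DESeq2 1.34.0 also named. Strand setting and annotation release: not given in the sources used here, so reads in the bases that DSG2 shares with its antisense gene cannot be told apart. The members and gene lists were chosen with earlier results of these data known.

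Counts were tested with edgeR 4.0.16 in R 4.3.3 (glmQLFit, glmQLFTest, TMM scaling, filterByExpr at its minimum count of 10, Benjamini-Hochberg adjustment over all genes, called below 0.05). The 12 HT-29 libraries, the 6 SW620 libraries and all 18 for comparisons across lines were fitted separately, and the method was tested on simulated data. Standard errors come from the unshrunken log2 fold change and its F statistic, while printed fold changes include edgeR's small prior count. Per-kb levels use GENCODE 29 exon lengths, matched by symbol. Profiles used log2 of CPM plus 0.5, against genes of at least 5 CPM. Each library was counted as a replicate. Pairs within a group varied beyond sampling noise (chi-square over its degrees of freedom, 3.93 to 42.6). That variation may be technical, so it does not show that the replicates are separate cultures. The highest values, 32.6 and 42.6, were those of DOX with DMSO replicate 2 in HT-29 against replicates 1 and 3. Named genes are the 9 members, ZEB1 and CDH1, up to 4 called genes of each list with the largest change in a comparison, and the 2 nearest profiles of each member, of which 1 is not reported here. Alternatives were RLE scaling, library totals, no filter, DESeq2 1.42.0, a replicate block, other sets of libraries in the fit, and leaving out each library.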

Additional observations from a re-analysis of the deposited data

Results flagged for a closer look

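Some genes of the desmosome and plakin set responded differently in different groups, by the test of that difference in edgeR. The DOX response in RepSox minus that in DMSO, on the log2 scale in HT-29 iZEB1, was 1.79 for PPL, 1.53 for PKP3, 1.10 for EVPL, 0.82 for PKP2, 0.78 for DSP and 0.27 for DSG2, whose call was lost in 11 of the 12 fits that left out 1 library. ZEB1 stood at 16.0 CPM with DOX and RepSox and 378 CPM with DOX and DMSO, and its part in these differences was not tested. The RepSox response in SW620 minus that in HT-29 iZEB1 without DOX was 1.37 for PPL, 0.41 for DSP and 0.32 for DSG2, whose call was lost in 10 of 12 such fits, and that of DSP in 3.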

How the results depend on the processing

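Over the 9 genes and 10 comparisons, 1139 single-gene values were recomputed: 1047 kept their direction and side of the threshold, 58 lost their call, 8 gained one and 26 changed sign, none of these 26 called in either form. The number of genes called moved most for DOX in RepSox. There 81 genes and 0 members were called, against 584 and 2 with no filter, 293 and 1 with DESeq2, and 27 to 1670 and 0 to 2 when 1 library was left out. For RepSox in SW620, 2019 genes and 1 member were called with all 18 libraries in the fit, and 1 to 4 members with 1 library left out. Leaving out 1 library gave 3 to 4 members for RepSox without DOX and 1 to 3 for the difference between the lines. The order of the first 3 genes per kb held in 0 of 6 groups with the longest transcript. The causes were not tested.

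Values that changed sign were small or rested on few counts. With library totals DSG2 was at -0.040 for RepSox with DOX, and for SW620 against HT-29 in DMSO PKP3 was at 0.11 and PPL at 0.016. With no filter PKP3 was at 6.06e-05 for RepSox without DOX. With 1 library left out, RepSox with DOX ranged from -0.046 to 0.10 for DSG2 and from -0.16 to 2.05 for PKP1, and RepSox without DOX from -0.040 to 0.020 for PKP2 and from -0.079 to 0.045 for PKP3. DOX in RepSox ranged from -0.049 to 0.092 for DSG2 and from -0.15 to 0.012 for PPL. Both agents against DMSO alone ranged from -0.095 to 0.095 for DSP, from -0.91 to 0.063 for DSC3 and from -0.76 to 0.14 for PKP1. The interaction of DSC3 ranged from -1.49 to 0.24, RepSox in SW620 from -0.060 to 0.0097 for EVPL, SW620 against HT-29 in DMSO from -0.12 to 0.0061 for PKP3, and the difference between the lines from -0.52 to 0.33 for DSC2.

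With library totals the share of higher calls among all calls was 59.5% instead of 47.6% for DOX in DMSO, 47.0% instead of 57.4% for the interaction and 39.5% instead of 52.5% for RepSox in SW620. In no comparison did the deviations of all 3 pairs of same-numbered replicates correlate above 0.1, and the values ran from -0.35 to 0.23. Differently numbered replicates were not compared in this way, so whether same-numbered replicates share a batch was not tested. With the replicate block 7 members were called for DOX in DMSO, 7 for RepSox with DOX and 5 for RepSox without DOX, as without it, and for RepSox in SW620 DSP was lost, leaving 2. Depth limits DSC3 and PKP1 in HT-29, where a difference may not have been detectable.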
